A study of Mus musculus with 2 samples.

Results

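The Mir106b-25 and Mir106a-363 clusters are paralogous groups of microRNA (miRNA) genes, related by descent to the better known Mir17-Mir92 cluster of Mir17hg. Their members were chosen by symbol: Mir106b, Mir93 and Mir25, which lie in an intron of Mcm7, and Mir106a, Mir18b, Mir20b, Mir19b-2, Mir92-2 and Mir363, which lie together on chromosome X. All 9 were found among the 1973 miRNA genes of the tables. The study measured miRNAs by small-RNA sequencing in limbs of B6NCrl mouse embryos of mixed sex at embryonic day 10.5. It has 1 group of 2 biological replicates, each a pool of embryos (69 in replicate 1, 51 in replicate 2), with no treatment, genotype or time contrast. At this stage the limb is a bud of mesenchyme under ectoderm.

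A miRNA gene is transcribed as part of a longer primary RNA, and a hairpin is cut out of it and trimmed to a short mature miRNA. The mature miRNA guides Argonaute proteins to messenger RNAs that carry a match to its seed, the bases near its 5′ end, so miRNAs with the same seed share most of their predicted targets. The Mir17 family of clusters is known for promoting proliferation and survival and for restraining the cell cycle inhibitor p21 and the proapoptotic protein Bim. Mcm7, the host of Mir106b, Mir93 and Mir25, encodes a subunit of the helicase that unwinds DNA at replication origins. Loss of the Mir17-Mir92 cluster itself is known to cause skeletal defects, also in humans.

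The mature sequences of the main arm of each hairpin, from RefSeq (GRCm38.p6), show how the 2 clusters divide among the seed families. Each is printed 5′ to 3′ with the seed, bases 2 to 8, in capitals. The first 4 share the miR-17 seed, the next 3 the miR-25 seed, and the last 2 carry the miR-18 and miR-19 seeds.
miR-106b-5p of Mir106b: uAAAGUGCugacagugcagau
miR-93-5p of Mir93: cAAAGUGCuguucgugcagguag
miR-106a-5p of Mir106a: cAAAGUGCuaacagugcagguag
miR-20b-5p of Mir20b: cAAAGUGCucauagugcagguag
miR-25-3p of Mir25: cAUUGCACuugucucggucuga
miR-363-3p of Mir363: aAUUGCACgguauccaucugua
miR-92a-3p of Mir92-2: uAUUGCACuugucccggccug
miR-18b-5p of Mir18b: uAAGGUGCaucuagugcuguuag
miR-19b-3p of Mir19b-2: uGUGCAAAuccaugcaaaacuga

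The messenger RNA sites that pair with these seeds read GCACUUU for miR-17, GUGCAAU for miR-25, GCACCUU for miR-18 and UUUGCAC for miR-19. The Mcm7 intron cluster thus holds 2 of the 4 seeds and the chromosome X cluster all 4. Outside the seed the miR-17 members differ at few positions, counted from 1 at the 5′ end of the miRNA. From miR-106a to miR-20b there are 2 differences over 23 bases (A10C and C12U), and from miR-106b to miR-93 there are 5 over 21 (U1C, A11U, C12U, A13C and A20G). In the miR-25 family miR-25 is close to miR-92a, with 3 differences over 21 bases (C1U, U14C and U18C). It is unlike miR-363 outside the seed, with 13 differences over 22 bases.

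The libraries were alike in sense counts over all miRNA genes, with 3581672 in the first and 3576482 in the second. They were not alike in total reads (10064833 and 7218612) or in unmapped reads (3247299 and 1344912). Levels are given per 1000000 of the sense counts (CPM). Reads listed as multimapping, 32.3% and 31.2% of the mapped reads, stood in a row of their own outside the genes. The tissue label was checked against marker lists: 10 of 10 Hox-embedded and mesenchymal genes were detected, with 205278 and 192936 CPM in all. Detection, at least 10 sense counts in both libraries, held for 17.6% of all miRNA genes. It also held for 7 of 7 epithelial genes, the 1 endothelial gene and 2 of 2 erythroid genes, so it does not single out mesenchyme. Epithelial markers totalled 12334 and 10775 CPM, the endothelial gene Mir126a 26707 and 23683, and erythroid genes 451 and 254. The muscle list, of which 4 of 5 genes had a row, totalled 26.8 and 97.9 CPM, all from Mir206. The neural list, of which 5 of 6 genes had a row, was near 0, at 2.23 and 1.40 CPM. Mir124a-1, Mir124a-2, Mir124a-3, Mir1a-1, Mir133a-1 and Mir133a-2, which have copies elsewhere, had no count. The Mir9 genes, the rest of the neural list, also have copies. Reads that fit several copies may stand among the multimapping reads, so neither the neural nor the muscle total shows that these miRNAs were absent. In a whole tissue, fewer cells of a type and less RNA per cell cannot be told apart, and this holds for every level below. With 2 libraries no p-value between them is informative, since an exact two-sided sign-flip test cannot go below 0.5, and each level carries its mean ± SD over both (n = 2).

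All 9 members were detected, with at least 10 sense counts in both libraries, as were 17.6% of all miRNA genes. Together they held 3.42% of the sense counts in replicate 1 and 3.32% in replicate 2. Their levels spanned from 15558 CPM for Mir93 to 18.4 CPM for Mir19b-2. Ranked by mean, the order was Mir93, Mir106b, Mir106a, Mir20b, Mir363, Mir25, Mir92-2, Mir18b and Mir19b-2. Of the 8 neighbouring pairs in this order, 6 kept it in both libraries. The exceptions were Mir20b with Mir363 and Mir25 with Mir92-2, in each of which the first was lower in replicate 1 and higher in replicate 2. The antisense strand of the 9 loci had 0 counts in both libraries.

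**Figure D1:**
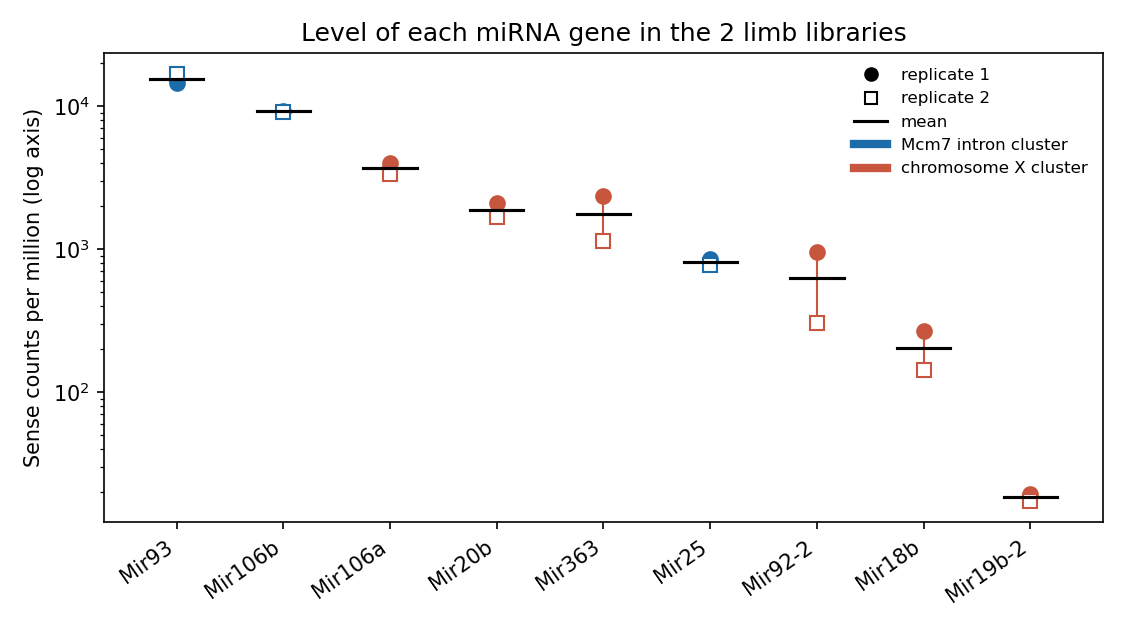
Level of each member in CPM (sense counts) on a log axis, with a filled circle for replicate 1, an open square for replicate 2 and a black line for their mean. Mir93 and Mir106b of the Mcm7 intron cluster (blue) lie above all 6 genes of the chromosome X cluster (red), Mir25 lies among them, and Mir92-2 and Mir363 have the widest gaps between the libraries.

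The Mcm7 intron cluster spans 498 bases on the minus strand of chromosome 5 (138165321 to 138165818, GRCm38), in intron 13 of the full-length Mcm7 transcript. Mir106b is the first hairpin in the direction of transcription (138165737 to 138165818), then Mir93 (138165523 to 138165610) and Mir25 (138165321 to 138165404). Mir93 and Mir25 also lie in an exon of an Mcm7 transcript annotated as a retained intron, whereas Mir106b overlaps no exon of that transcript. The miR-17 seed genes of this intron were far more abundant than its miR-25 seed gene.

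Mir93 had 14432 and 16685 CPM in replicates 1 and 2, a mean of 15558 ± 1593, and ranked 15 in each library. Mir106b had 9220 and 9136 CPM, a mean of 9178 ± 59.5, and ranked 20 in each. Mir25 had 858 and 778 CPM, a mean of 818 ± 56.7. Mir93 therefore lay above Mir106b and both far above Mir25 in each library, with no overlap. Mir93 was 1.69-fold above Mir106b (log2 ratio 0.76 ± 0.16) and 19.0-fold above Mir25 (4.25 ± 0.25). Mir106b was 11.2-fold above Mir25, with log2 ratios of 3.43 (95% binomial interval 3.37 to 3.48) and 3.55 (3.50 to 3.61). Of the counts of the cluster, Mir93 made up 60.8% ± 2.72, Mir106b 36.0% ± 2.31 and Mir25 3.21% ± 0.407. Genes of 1 intron thus gave reads, both arms of each hairpin together, at levels that differed by more than their spread between replicates. Whether library preparation captured the sequences equally was not tested.

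The chromosome X cluster spans 875 bases on the minus strand (52741693 to 52742567). In the direction of transcription its hairpins are Mir106a (52742503 to 52742567), Mir18b (52742331 to 52742413), Mir20b (52742113 to 52742192), Mir19b-2 (52741983 to 52742066), Mir92-2 (52741838 to 52741928) and Mir363 (52741693 to 52741767). None has a host gene that spans it, but the first 5 bases of Mir106a overlap the end of the noncoding gene Kis2 on the same strand. The hairpins are 46 to 138 bases apart.

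Mir106a, which carries the miR-17 seed, led this cluster at 4035 and 3358 CPM in replicates 1 and 2, a mean of 3697 ± 479. Mir20b, with the same seed, had 2095 and 1689 CPM, a mean of 1892 ± 287. Their ratio was nearly the same in the libraries, with Mir106a 1.93-fold above Mir20b in replicate 1 and 1.99-fold in replicate 2. Mir363, the last hairpin and a miR-25 seed gene, had 2366 and 1135 CPM, a mean of 1750 ± 870. It was above Mir20b in replicate 1 and below it in replicate 2, so their order was not settled. Mir18b had 266 and 144 CPM, a mean of 205 ± 86.3, and is the only miR-18 seed gene beside Mir18 of the Mir17hg cluster. Mir106a made up 46.0% ± 6.41 of the counts of the cluster, Mir20b 23.5% ± 2.74, Mir363 20.7% ± 5.11 and Mir18b 2.45% ± 0.402.

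**Figure D2:**
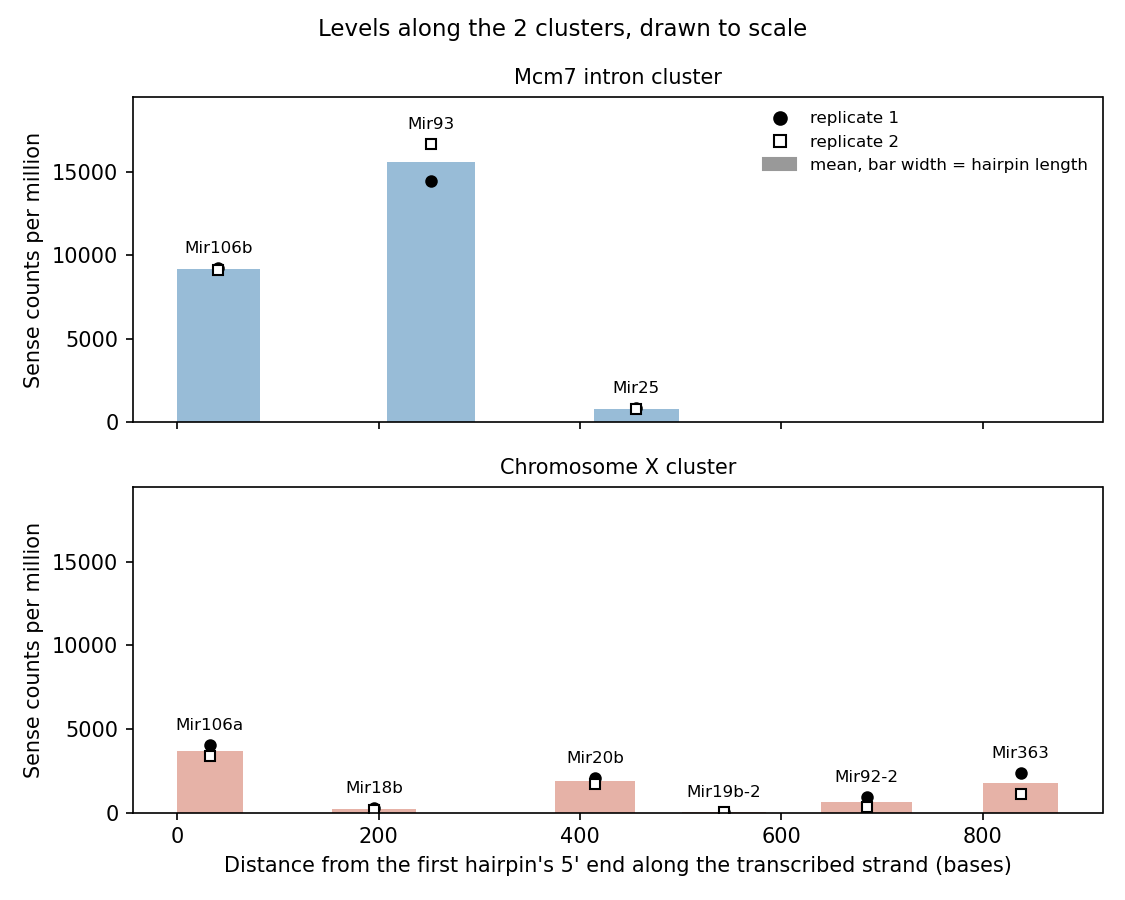
Level in CPM (sense counts) at each hairpin along both clusters, drawn to scale from the 5′ end of the first hairpin, with bars for the mean, filled circles for replicate 1 and open squares for replicate 2. Within the Mcm7 intron the level rises from Mir106b at 9178 to Mir93 at 15558 and falls to Mir25 at 818. On chromosome X the high genes (Mir106a, Mir20b, Mir363) have lower ones between them. Of these, Mir19b-2 and Mir92-2 have counts limited by a mature sequence shared with the Mir17hg cluster.

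The 2 other genes of this cluster encode mature sequences that also come from the Mir17hg cluster on chromosome 14, which limits their counts. Mir92-2 had 954 CPM in replicate 1 and 306 in replicate 2, a mean of 630 ± 458. Mir19b-2 had 70 and 62 counts, or 19.5 and 17.3 CPM, a mean of 18.4 ± 1.56. Their hairpins, from GENCODE M21, are printed 5′ to 3′ beside those of Mir92-1 and Mir19b-1 to show what the copies share. The capitals mark the longest identical run that holds the main mature miRNA.
Mir19b-1: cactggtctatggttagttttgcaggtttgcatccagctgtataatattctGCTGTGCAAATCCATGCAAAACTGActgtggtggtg
Mir19b-2: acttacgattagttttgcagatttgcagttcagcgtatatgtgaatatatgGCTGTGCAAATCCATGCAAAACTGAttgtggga
Mir92-1: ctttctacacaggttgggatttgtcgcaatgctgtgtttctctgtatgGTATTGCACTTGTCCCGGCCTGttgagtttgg
Mir92-2: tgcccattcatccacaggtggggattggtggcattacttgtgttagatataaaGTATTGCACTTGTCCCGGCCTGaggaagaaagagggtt

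The shared run is 25 bases in the Mir19b pair and 22 bases in the Mir92 pair, and in both it ends with the last base of the mature miRNA. A read inside the run fits both loci. The tables hold a separate row for multimapping reads, from which it is inferred, since the counting method was not stated, that such a read was counted at neither locus. A read that extends past the run, or comes from the other arm, can be placed. Under that reading the counts of Mir19b-2 and Mir92-2 are those of placeable reads alone and do not give the level of miR-19b or miR-92a. Among placed reads Mir92-1 was 16.0-fold above Mir92-2 (12.8 and 19.96 in the 2 libraries), and Mir19b-1 was 3.99-fold above Mir19b-2 (5.91 and 2.69). The other 7 members have a main mature sequence found in no other of the 2202 annotated hairpins. For 6 of them the first 9 to 11 bases are already distinct, while miR-18b is distinct from miR-18a from base 18 on (U18A and U20A, from miR-18b to miR-18a). Matches elsewhere in the genome were not examined.

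Comparing the clusters, the Mcm7 intron genes held 2.45% of the sense counts in replicate 1 and 2.66% in replicate 2, a mean of 2.56% ± 0.148. The chromosome X genes held 0.974% and 0.665%, a mean of 0.819% ± 0.218. The 3 genes of the Mcm7 intron thus gave more reads than the 6 on chromosome X in both libraries, 2.52-fold more in replicate 1 (log2 ratio 1.33, 95% binomial interval 1.31 to 1.35) and 4.001-fold in replicate 2 (2.00, 1.98 to 2.02). The mean log2 ratio was 1.67 ± 0.47. It was 1.78 without the genes of shared mature sequence, and 3.19 when log2(CPM + 1) was averaged over the members in place of summing the counts. That average gives Mir19b-2 and Mir92-2, whose counts are limited as given above, the same weight as the other members. The Mir17hg cluster, their common paralog, was 5.57-fold above the Mcm7 intron cluster (log2 ratio of the intron cluster to it -2.48 ± 0.07) and 17.7-fold above the chromosome X cluster (-4.14 ± 0.40). These distances are of summed counts, in which Mir17 weighs most. Without the most abundant member of each cluster, the log2 ratio of sums to Mir17hg was -2.37 for the Mcm7 intron cluster and -3.58 for the chromosome X cluster. With log2(CPM + 1) averaged over members, the log2 ratio to Mir17hg was -2.86 for the chromosome X cluster and turned to 0.33 for the Mcm7 intron cluster. Such averages weigh low genes as much as high ones, among them Mir19a (mean 169 CPM), Mir19b-1 (81.1) and Mir19b-2 (18.4). The counts of Mir19b-1 and Mir19b-2 carry the limit of the shared sequence, and the averages were not computed without such genes. Between the libraries the distance of summed counts ran from 5.76-fold to 5.37-fold for the Mcm7 intron cluster and from 14.5-fold to 21.5-fold for the chromosome X cluster.

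The order of the 2 clusters depended on the seed family. Genes are grouped here by the seed of the main arm, but their counts hold both arms of the hairpin together. The part of the other arm, which has its own seed, could not be separated. In the miR-17 family the Mcm7 intron genes (Mir106b and Mir93) had 23652 and 25821 CPM, against 6130 and 5047 CPM for the chromosome X genes (Mir106a and Mir20b). They were 4.44-fold higher, with log2 ratios of 1.95 (1.93 to 1.97) and 2.36 (2.33 to 2.38). Each of Mir106b and Mir93 lay above each of Mir106a and Mir20b in both libraries, from 2.49-fold (Mir106b over Mir106a) to 8.25-fold (Mir93 over Mir20b). In the miR-25 family the order of the sums turned, with 1 gene against 2. Mir25 had 858 and 778 CPM, against 3320 and 1440 CPM for Mir363 and Mir92-2 together. The log2 ratio of the Mcm7 intron to chromosome X was -1.95 (-2.01 to -1.89) and -0.89 (-0.96 to -0.82). Against Mir92-2 alone the order was not settled, with Mir25 at 0.90-fold of it in replicate 1 and 2.55-fold in replicate 2.

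Mir363 alone, whose sequence is not shared, was 2.76-fold above Mir25 in replicate 1 and 1.46-fold in replicate 2. The difference between the log2 ratios of the 2 families was 3.90 in replicate 1 and 3.24 in replicate 2, a mean of 3.57 ± 0.46, and 3.15 ± 0.36 without the genes of shared sequence. That difference was several times its spread between the libraries, though 2 values give only a rough SD.

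**Figure D3:**
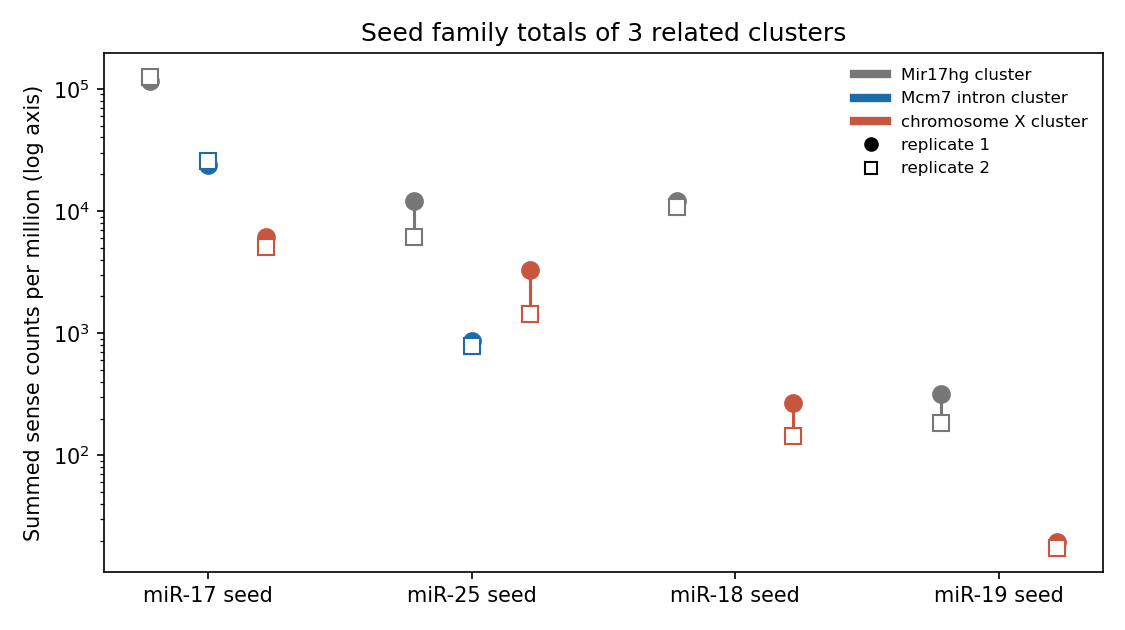
Summed CPM (sense counts) of each cluster in the 4 seed families, on a log axis, with filled circles for replicate 1 and open squares for replicate 2. The Mcm7 intron cluster (blue) lies above the chromosome X cluster (red) in the miR-17 family and below it in the miR-25 family, and the Mir17hg cluster (grey) is the highest in every family.

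The counts of the miR-17 seed genes of the 3 clusters, both arms together, were then set against Mir17hg. Mir17 and Mir20a gave 80.0% ± 0.455 of them, Mir106b and Mir93 16.3% ± 0.228, and Mir106a and Mir20b 3.70% ± 0.683. The ratio of the Mcm7 intron pair to the Mir17hg pair was the steadiest of all, 4.94-fold and 4.88-fold lower in the 2 libraries (log2 ratio -2.30 ± 0.01). Mir17 was 24.5-fold above Mir106a (21.6 and 27.9), although miR-17-5p and miR-106a-5p differ at 1 of 23 bases (U10A, from miR-17 to miR-106a). Whether misread bases moved reads between such near-identical sequences was not tested. Mir20a was 16.5-fold above Mir20b (14.2 and 19.2) and 2.00-fold above Mir93. Mir6383, the only other annotated gene with this seed, had 0 counts in both libraries.

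The counts of the miR-25 seed genes of the 3 clusters were divided differently. Of these, 73.9% ± 0.805 came from Mir92-1, 18.8% ± 2.10 from Mir363 and Mir92-2 and 7.30% ± 2.91 from Mir25. The limits on shared sequences and on the arms given above apply. Between the genes of unshared sequence, Mir363 took 66.3% ± 9.94 and Mir25 33.7% ± 9.94. Outside the clusters, Mir92b had 515 and 385 CPM, Mir32 240 and 205 CPM, and Mir367, a gene of early embryonic cells, 1 and 5 counts. Mir25 and Mir363 were above each of these in both libraries, Mir25 by 3.69-fold and Mir363 by 7.39-fold over Mir32.

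In the miR-18 family Mir18b was 45.2-fold below Mir18 in replicate 1 and 74.4-fold below in replicate 2 (log2 ratio -5.86 ± 0.51), the widest gap between paralogs of unshared sequence. In the miR-19 family all counts were low. Mir19a of the Mir17hg cluster, whose mature sequence differs from miR-19b at 1 base (C11U, from miR-19b to miR-19a) and is not shared, had 200 and 138 CPM. That was 9.04-fold above Mir19b-2, a ratio that carries the limit of the shared sequence.

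Between the libraries the summed counts of the clusters moved in opposite directions. Ratios are log2, replicate 2 minus replicate 1, with a prior count of 1, and intervals cover counting error alone. Over the 250 genes that averaged 100 counts or more the median was -0.27, and edgeR's TMM factors shifted all ratios by 0.29 and DESeq2's by 0.28. The members are therefore also given relative to that median. The Mcm7 intron cluster as a whole had a ratio of 0.12 and the chromosome X cluster of -0.55, which lay 0.39 above and 0.28 below the median. Which cluster differed more thus depends on the reference. In the Mcm7 intron, Mir93 had a ratio of 0.21 (0.19 to 0.23), 0.48 above the median, and Mir106b had -0.01 (-0.04 to 0.01), 0.26 above it and 0.28 with TMM or 0.26 with DESeq2 scaling. Mir25 had -0.14 (-0.22 to -0.07), 0.13 above the median, and turned positive with either scaling (0.15 with TMM, 0.13 with DESeq2). All 3 thus lay above the median of the genes.

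On chromosome X, Mir92-2 had a ratio of -1.64 (-1.74 to -1.54), Mir363 of -1.06 (-1.11 to -1.01) and Mir18b of -0.89 (-1.04 to -0.73). These lay 1.37, 0.79 and 0.61 below the median and stayed negative with both scalings. Mir106a at -0.26 (-0.30 to -0.23) and Mir20b at -0.31 (-0.36 to -0.26) lay 0.006 above and 0.04 below the median, and moved to 0.02 and -0.02 with TMM, so the sign of Mir106a turned. The interval of Mir19b-2, at -0.17 (-0.69 to 0.34), included 0, and its ratio was 0.12 with TMM and 0.11 with DESeq2. Among the 8 members with at least 100 counts on average, 2 (Mir92-2 and Mir363) differed by over 2-fold, against 10.8% of the 250 genes, and both were lower in replicate 2, against 9.60%. With either scaling the count was 1, Mir92-2. With so few members, the count is given as a description.

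By seed family, the ratios between the libraries of the 6 miR-17 seed genes of the 3 clusters ran from -0.31 (Mir20b) to 0.21 (Mir93). The ratios of Mir363, Mir92-2 and Mir92-1 were -1.06, -1.64 and -0.998, whereas the other detected miR-25 seed genes were nearer the median of all genes, with Mir25 at -0.14, Mir92b at -0.42 and Mir32 at -0.22. Mir92-1 had 12187 CPM in replicate 1 and 6100 in replicate 2, and its ratio to Mir363 was nearly the same in both, 5.15-fold and 5.38-fold. Mir18b (-0.89) and Mir18 (-0.17) share a seed and moved apart. In the miR-19 family the ratios were -1.30 for Mir19b-1, -0.54 for Mir19a and -0.17 for Mir19b-2. The replicates differ in the number of pooled embryos and in the share of reads not counted on the sense strand of a gene (64.4% in replicate 1, 50.5% in replicate 2), and the part of either in these differences was not tested.

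**Figure D4:**
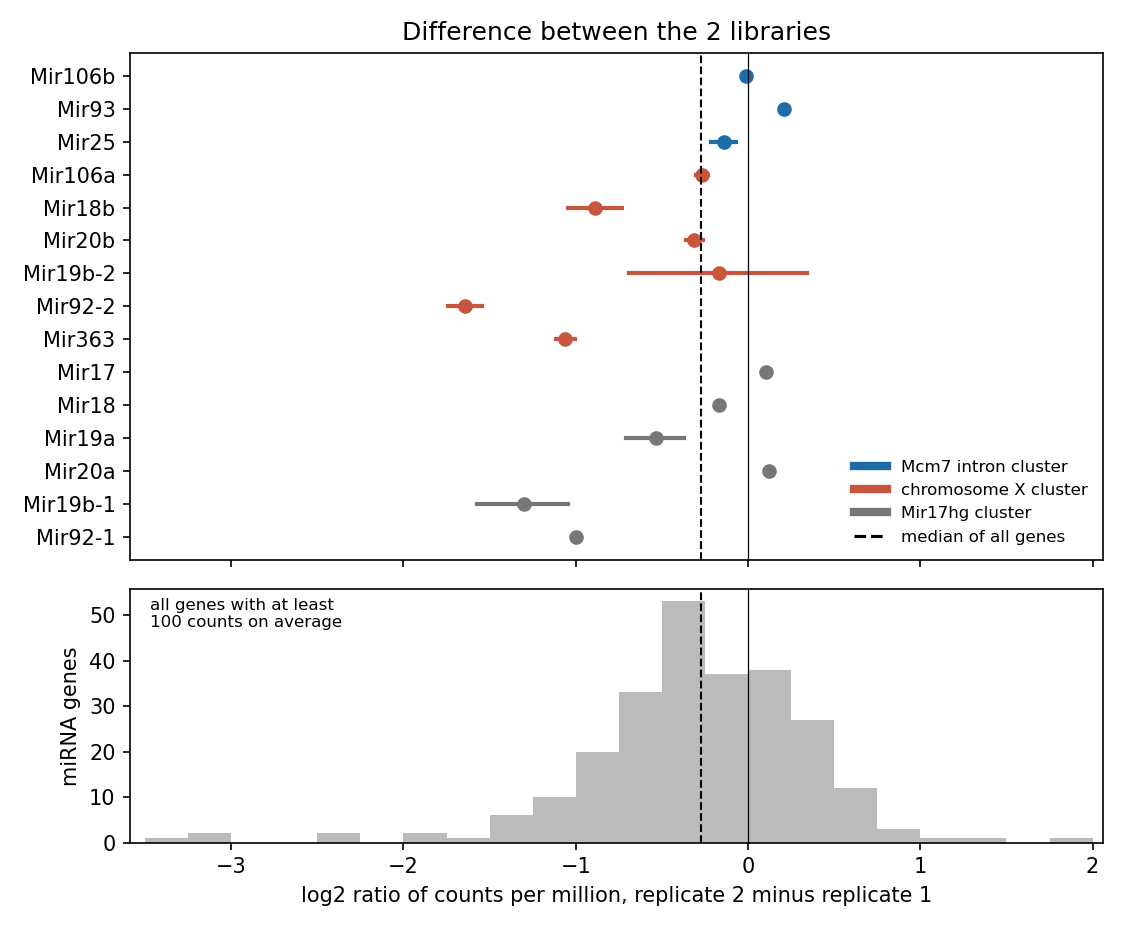
Top, log2 ratio of CPM (replicate 2 minus replicate 1) of the genes of the 3 clusters, with 95% counting intervals. Bottom, the number of miRNA genes by the same ratio among the 250 that averaged 100 counts or more. The dashed line is their median, -0.27. The Mcm7 intron genes lie to its right, and Mir92-2, Mir363 and Mir18b of the chromosome X cluster lie to its left.

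The genes next to each member in mean CPM place it among all miRNAs. Of these 18 neighbours, 16 changed order with the member between the libraries and 2 (Mir214 and Mir541) did not. Since neighbours are the genes of closest mean, this is a description of the levels alone. Mir93 lay below Mir214, one of the mesenchymal markers, with 16591 and 20513 CPM, in both libraries, and Mir106a lay below Mir541 in both. Mir106b stood between Mir130b (8963 and 10093 CPM) and Mir92-1 of the Mir17hg cluster. Mir25 stood between Mir96 and Mir200b, whose means of 827 and 805 CPM were within its own SD.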

How the data were processed

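Per the deposited readme texts, reads were aligned to mm10 and counted over GENCODE M4, 1 alignment per library. The aligner, the counter, their versions and any trimming were not stated in the labels or readme texts. Values in the deposited tables are raw counts of reads for each miRNA gene (both strands, sense, antisense), with both arms of a hairpin together, and rows for unmapped, multimapping, unassigned and ambiguous reads, which were left out of the totals. Sense counts were used. Identifiers were matched to GENCODE M21 (GRCm38, the same build as mm10) without version: 1894 of 1973 matched. No length scaling was applied, as mature sequences are 21 to 23 bases.

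Members and lists were chosen with earlier results of these data known. Named are the members, genes sharing their seeds, the Mir17hg genes and neighbours in mean CPM; with 1 group, likeness across conditions could not be measured. Ratios between genes were taken within each library. A count of 0 allows 0.838 CPM in replicate 1 and 0.839 in replicate 2 (3 counts). Intervals are 95% exact binomial (Clopper-Pearson). Intervals and floors cover counting error only, since PCR reads are not independent molecules. Alternatives were other scalings, strands, filters, prior counts, member sets and leaving out a library. The code was tested on simulated data. Intervals came from scipy 1.17.1, figures from matplotlib 3.10.9, and tables from pandas 2.3.3 and numpy 2.4.6 under Python 3.11.15. The scaling alternatives used DESeq2 1.42.0 and edgeR 4.0.16 under R 4.3.3.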

Additional observations from a re-analysis of the deposited data

How the results depend on the processing

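Averaging log2(CPM + 1) over members and leaving out the most abundant member were tried on the cluster ratios, not on the seed family ratios. The cluster and seed family log2 ratios kept their direction under the alternatives tried on each, except the ratio of the Mcm7 intron cluster to Mir17hg. That ratio, -2.48 ± 0.07, was 0.332 when log2(CPM + 1) was averaged over members, and moved past its SD without the genes of shared sequence (-2.379) and without the most abundant member of each cluster (-2.372). The same averaging moved the ratio of the clusters from 1.67 to 3.19 and that of chromosome X to Mir17hg from -4.14 to -2.859. The latter was -3.579 without the most abundant members, which gave 1.21 for the ratio of the clusters. The averages were not computed without the genes of shared sequence, whose limited counts enter them. Counting both strands moved no ratio. With 2 libraries, leaving out 1 gives the value of the other, so it is no check of stability. As a share of all mapped reads, the Mcm7 intron cluster held 1.45% and the chromosome X cluster 0.458%, because multimapping and unassigned reads enter the denominator. All 9 members stayed detected at 5 and at 20 counts and in each library alone. With edgeR TMM and with DESeq2 size factors, 1 member in place of 2 differed by over 2-fold. The ratio between libraries changed sign with these scalings for Mir25 (0.148 and 0.135) and Mir106a (0.024 and 0.011). It also did so for Mir106b (from -0.013 to 0.276 and 0.263) and Mir19b-2 (from -0.170 to 0.119 and 0.106), whose intervals included 0. No paired analysis was possible because there is 1 group. Without the genes of shared sequence, no miR-25 or miR-19 ratio to Mir17hg could be computed, since Mir92-1 and Mir19b-2 are the only genes of those families in their clusters. Depth limits Mir19b-2 alone, with 70 and 62 counts.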
